A study of Homo sapiens with 6 samples.

Results

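The 6 miRNAs followed here have known roles in breast cancer, 1 for hypoxia (hsa-miR-210-3p), 1 for inflammation (hsa-miR-155-5p), 1 for the p53 response (hsa-miR-34a-5p) and 3 for metastasis (hsa-miR-31-5p, hsa-miR-335-5p and hsa-miR-105-5p), and were measured in small RNA libraries of extracellular vesicles (EVs). They were taken by name from the deposited table, which holds 832 miRNAs, and all 6 were present. The EVs were pelleted by ultracentrifugation from medium conditioned by MDA-MB-231, an established breast cancer line that lacks hormone receptors and has mutant p53. One group is the unmodified line (231 EV, n = 3, genotype WT). The other is the same line after knockdown of ACO1 (231 ACO1KD EV, n = 3), a cytosolic aconitase that binds RNA when it lacks its iron-sulphur cluster. How the knockdown was made and whether the knockdown line is 1 clone are not given in the sources used here. Nothing says that the replicates came from separate cultures, so a p-value measures the spread between these libraries, which may be technical. The main test pools that spread over miRNAs. Small RNA libraries hold no mRNA, so the level of ACO1 itself was not checked. The comparison asks whether EVs of the knockdown cells carry other miRNAs than EVs of the parent line.

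Of the 6 miRNAs, hsa-miR-105-5p was lower in 231 ACO1KD EV, 1.92-fold, and the other 5 did not pass the test. The call on hsa-miR-105-5p held with 7 of 14 other ways of processing the counts and was lost with the other 7. hsa-miR-210-3p was the most abundant of the 6 in both groups. Its TPM was higher in every knockdown library than in every control library, as for 22.6% of all tested miRNAs. Whether hsa-miR-210-3p counts as changed depended on how the libraries were scaled. hsa-miR-31-5p was close to the detection limit in all libraries. In RNA from whole EV preparations, fewer vesicles that carry a miRNA and fewer copies per vesicle cannot be told apart.

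A mature miRNA is cut from 1 arm of an RNA hairpin, the 5p or the 3p arm, and finds its target mRNAs mainly through its seed, bases 2 to 8 from the 5′ end. Cells release part of their miRNAs in EVs, where they can reach other cells. Low oxygen induces miR-210 through the hypoxia-inducible factors, inflammatory signals induce miR-155 through NF-kB, and p53 induces miR-34a. In breast cancer models miR-31 and miR-335 restrain metastasis, whereas miR-105 released in EVs loosens the tight junctions between endothelial cells.

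The mature sequences show what was counted and that the 6 do not share a seed. They are from RefSeq on GRCh38.p14, run 5′ to 3′, and carry the seed in capitals.
hsa-miR-210-3p: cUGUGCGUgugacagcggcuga
hsa-miR-155-5p: uUAAUGCUaaucgugauagggguu
hsa-miR-34a-5p: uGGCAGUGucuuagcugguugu
hsa-miR-31-5p: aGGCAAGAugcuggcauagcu
hsa-miR-335-5p: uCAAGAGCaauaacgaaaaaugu
hsa-miR-105-5p: uCAAAUGCucagacuccuguggu
hsa-miR-105-3p, the other arm of the miR-105 hairpins: aCGGAUGUuugagcaugugcua
All 6 seeds differ. The GC content ran from 30.4% in hsa-miR-335-5p to 63.6% in hsa-miR-210-3p, against a median of 47.6% over the 435 tested miRNAs with a RefSeq sequence. The letters CAUUG, from a motif that the study lists for ACO1, were searched on the mature strand alone. They occur in 21 of the 715 miRNAs of the table with a RefSeq sequence (2.94%) and in 0 of the 6.

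The hairpins were located with GENCODE 29 on GRCh38, and the 6 miRNAs do not share a host gene. MIR210 lies on the minus strand of chromosome 11 (568089 to 568198), in an intron of the non-coding host MIR210HG in all 4 of its transcripts. MIR155 lies on the plus strand of chromosome 21 (25573980 to 25574044), in an exon of MIR155HG. MIR34A lies on the minus strand of chromosome 1 (9151668 to 9151777), in an exon of MIR34AHG. MIR31 lies on the minus strand of chromosome 9 (21512115 to 21512185), in an intron of MIR31HG. MIR335 lies on the plus strand of chromosome 7 (130496111 to 130496204), in an intron of the imprinted gene MEST in the 13 transcripts of MEST that span it, and in an exon of an antisense transcript of AC007938.2. hsa-miR-105-5p has 2 hairpins with the same mature sequence, MIR105-1 (chromosome X, 152392219 to 152392299) and MIR105-2 (chromosome X, 152394412 to 152394492), both on the minus strand in an intron of GABRA3, and reads cannot be assigned to either.

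The libraries held 224948 to 230562 counts in 231 EV and 67873 to 175924 in 231 ACO1KD EV, where replicate 2 is the shallowest. TPM is here each miRNA's count scaled to the same total in every library, without a length term, so that a single count adds 4.34 to 4.45 TPM in the control libraries and 5.68 to 14.7 TPM in the knockdown libraries. A quasi-likelihood test in edgeR after TMM scaling compared the 517 miRNAs counted in 3 or more libraries, with Benjamini-Hochberg adjustment and a threshold of 0.05 on the adjusted p, and all 6 miRNAs were among them. TMM scaling puts the median log2 fold change of the 517 at -0.03, and scaling by library totals puts it at 0.32. Values with library totals are given as fitted, not relative to that median. miRNAs abundant in mesenchymal breast lines were high. hsa-miR-21-5p, hsa-miR-221-3p, hsa-miR-222-3p, hsa-miR-100-5p and hsa-miR-29a-3p together had 383466 to 419427 TPM in the control libraries and 213045 to 293964 TPM in the knockdown libraries. After TMM scaling 4 of these 5 were called lower and 0 higher, where 6% of all 517 tested miRNAs were lower and 2.51% higher. With library totals 3 were lower and 1 was higher, against 13 and 58 of all 517. hsa-miR-21-5p alone made up 28.5%, 31.2% and 30.2% of the counts in 231 EV by replicate. In 231 ACO1KD EV it made up 12.2%, 11.7% and 18.4%. TPM adds to the same total in every library, so the TPM of other miRNAs depends on this share. How much of their TPM differences it makes up was not tested. The 6 listed miRNAs of luminal epithelium (miR-200 family and hsa-miR-205-5p) had 858 to 985 TPM against 619 to 992 TPM. Of these 1 was lower after TMM scaling and 0 with library totals. Both arms of the liver miRNA miR-122 had 1098 to 1324 TPM against 985 to 1893 TPM, with 0 called on either scale. miRNAs of blood cells were present too, and the 6 listed had 8742 to 9793 TPM in the control libraries against 12478 to 13525 TPM in the knockdown libraries. These sums did not overlap, and of all tested miRNAs taken singly 22.6% were higher without overlap on TPM. After TMM scaling 2 of the 6 were called higher and 2 lower, against 2.51% and 6% of all tested miRNAs.

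The 6 miRNAs together made up 0.169% to 0.188% of the counts in 231 EV and 0.202% to 0.234% in 231 ACO1KD EV. In 231 EV the order of mean TPM was hsa-miR-210-3p, hsa-miR-335-5p, hsa-miR-34a-5p, hsa-miR-105-5p, hsa-miR-155-5p and hsa-miR-31-5p. The libraries of hsa-miR-210-3p and hsa-miR-335-5p overlapped in 231 EV, as did those of hsa-miR-34a-5p and hsa-miR-105-5p, and the other neighbours in that order did not. In 231 ACO1KD EV the order was the same, and hsa-miR-105-5p and hsa-miR-155-5p were then the only neighbours whose libraries overlapped. TPM values of different miRNAs also reflect how well each is ligated and amplified.

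hsa-miR-210-3p, the miRNA most regularly induced by low oxygen, lowers ISCU, a scaffold protein for iron-sulphur clusters. In 231 EV its TPM was 711, 733 and 636 by replicate. In 231 ACO1KD EV its TPM was 1171, 1090 and 1042. All knockdown libraries thus lay above all control libraries, and the mean was 693 ± 51.2 TPM (SD, n = 3) against 1101 ± 65.0 TPM (SD, n = 3), a ratio of 1.59. Of the 517 tested miRNAs, 22.6% were higher in all knockdown libraries than in all control libraries on TPM, so this separation was common, and 5.8% were lower in the same sense. hsa-miR-210-3p was the 1 of the 6 whose TPM did not overlap between the groups, against 28.4% of all tested miRNAs. Within a library hsa-miR-210-3p ranked from 82 to 87 by TPM in 231 EV and from 72 to 76 in 231 ACO1KD EV. After TMM scaling its log2 fold change was 0.32 (standard error 0.21, 95% interval -0.10 to 0.74), which did not pass the test (edgeR adjusted p = 0.485). With library totals the log2 fold change was 0.67 and the edgeR adjusted p was 0.0199, and on that scale 13.7% of the tested miRNAs were called, 11.2% as higher. hsa-miR-210-5p, the other arm, had 1 count in 231 ACO1KD EV replicate 1 and 0 in the other 5 libraries, so reads of this hairpin came almost entirely from the 3p arm.

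The TMM-scaled profile of hsa-miR-210-3p over the 6 libraries was most like those of hsa-miR-126-5p (Pearson's r = 0.970), hsa-miR-142-5p (r = 0.951) and hsa-miR-223-3p (r = 0.900), out of 225 other miRNAs with a mean count of at least 10. These coefficients describe 6 libraries that share their depth and scaling. Like profiles were picked over libraries of both groups, here and below, so a shared direction of change follows in part from the picking. How high the best of 225 coefficients runs by chance was not tested. hsa-miR-126-5p is an endothelial miRNA, and hsa-miR-142-5p and hsa-miR-223-3p are miRNAs of blood cells. Their log2 fold changes were 0.47, 0.38 and 0.51, and the first and the third passed the test (edgeR adjusted p = 0.0295 and 0.0226). The blood cell list as a whole was mixed, with hsa-miR-223-3p and hsa-miR-150-5p higher and hsa-miR-451a and hsa-miR-486-5p lower among its 6 tested members. Over all 517 tested miRNAs 2.51% were higher and 6% lower. With library totals 3 of the list were higher and 2 lower, against 58 and 13 of all 517. When 231 EV replicate 1, 2 or 3 was left out, 0 of the list were higher, against 7, 7 and 5 of all tested miRNAs. In these fits 2, 2 and 1 of the list were lower, against 14, 22 and 14. Without 231 ACO1KD EV replicate 1, 2 or 3 the list had 1, 2 and 2 higher, against 14, 12 and 25. It then had 2, 2 and 2 lower, against 17, 26 and 40. The part of the blood cell miRNAs in the level of hsa-miR-210-3p was not tested.

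hsa-miR-155-5p, which inflammatory signals induce in leukocytes and tumour cells, was counted 13, 11 and 25 times in the 231 EV libraries and 12, 11 and 13 times in the 231 ACO1KD EV libraries. Its TPM was 57.8, 47.7 and 111 in 231 EV and 68.2, 162 and 82.6 in 231 ACO1KD EV. The groups overlapped, and the highest value came from the shallowest library, where 11 counts give a 95% Wilson interval of 90.5 to 290.2 TPM. The log2 fold change was 0.03 with a standard error of 0.43, and its 95% interval spans folds from 0.567 to 1.83 (edgeR adjusted p = 0.984). Its other arm, hsa-miR-155-3p, has no entry in the deposited table. The profiles most like it over the 6 libraries were those of hsa-miR-93-3p (r = 0.944), hsa-miR-942-5p (r = 0.856) and hsa-miR-615-3p (r = 0.853), none of which passed the test.

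hsa-miR-34a-5p, a direct p53 target that slows the cell cycle and favours apoptosis, had 200.05, 312 and 199.99 TPM in 231 EV. In 231 ACO1KD EV it had 165, 279.9 and 203 TPM, so the groups overlapped. After TMM scaling the means were 268 ± 69.7 CPM and 190 ± 42.6 CPM (SD, n = 3 each), with overlap again, and the log2 fold change was -0.54 (standard error 0.29, 95% interval -1.12 to 0.03). This did not pass the test (edgeR unadjusted p = 0.0654 and adjusted p = 0.296). hsa-miR-449a and hsa-miR-449b-5p, relatives with the seed GGCAGUG, add little to the reads with this seed. hsa-miR-449a was counted 3, 5 and 3 times in the 231 EV libraries and 0, 2 and 2 times in the 231 ACO1KD EV libraries, and hsa-miR-449b-5p had 1 count in all. The closest profiles were those of hsa-miR-146b-5p (r = 0.876), which was lower in 231 ACO1KD EV (log2 fold change -0.73, edgeR adjusted p = 0.0288), hsa-miR-1296-5p (r = 0.875) and hsa-miR-185-5p (r = 0.831).

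hsa-miR-31-5p, whose loss accompanies metastatic behaviour in breast cancer lines, was counted 2, 8 and 3 times in the 231 EV libraries and 2, 1 and 5 times in the 231 ACO1KD EV libraries. In TPM these are 8.89, 34.7 and 13.3 against 11.4, 14.7 and 31.8, and both groups span nearly the same range. With 1 to 8 counts per library the 95% interval of the log2 fold change ran from -1.99 to 1.46, so folds from 0.252 to 2.75 lie within it at this depth. Its mean TPM of 19.1 over the 6 libraries compares with 897 for hsa-miR-210-3p.

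hsa-miR-335-5p, which sits in MEST and lowers SOX4 and tenascin C in breast cancer cells, was well covered. It had 667, 559.5 and 458 TPM in 231 EV and 728, 648 and 502 TPM in 231 ACO1KD EV. The groups overlapped, and the means were 561 ± 104.5 TPM and 626 ± 114 TPM (SD, n = 3 each). The log2 fold change was -0.19 (standard error 0.24, 95% interval -0.66 to 0.28) after TMM scaling and 0.16 with library totals, so its direction turned with the scaling, and neither passed the test (edgeR adjusted p = 0.768 and 0.731). Its closest profiles were those of hsa-miR-361-3p (r = 0.955), hsa-miR-130b-3p (r = 0.926) and hsa-miR-19b-3p (r = 0.793).

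hsa-miR-105-5p, the EV-borne miRNA that lowers the tight junction protein TJP1 in endothelium, was the 1 miRNA of the 6 past an adjusted p of 0.05. Over all 517 tested miRNAs 8.51% were past it, 6% as lower and 2.51% as higher. It was also the 1 of the 6 with an unadjusted p under 0.05, as 18.8% of all tested miRNAs had. By replicate it was counted 52, 35 and 62 times in the 231 EV libraries and 23, 10 and 25 times in the 231 ACO1KD EV libraries. In TPM it had 231, 152 and 276 against 131, 147 and 159, so 231 EV replicate 2 lay below the highest knockdown library. After TMM scaling it had 253, 169 and 328 CPM against 118, 123 and 146 CPM, and all knockdown libraries lay below all control libraries, as they did for 12.8% of the tested miRNAs. With hsa-miR-210-3p (777, 817 and 756 CPM against 1057, 910 and 955 CPM) 2 of the 6 did not overlap on this scale, against 24.4% of all tested miRNAs, 11.6% as higher. The log2 fold change was -0.94 (standard error 0.31, 95% interval -1.55 to -0.33, edgeR adjusted p = 0.0295). With library totals it was -0.59 (edgeR adjusted p = 0.214), with DESeq2 it was -0.91 (DESeq2 adjusted p = 0.0874), and with limma on log2(TPM + 1) it was -0.55 (limma adjusted p = 0.308). The call was also lost without 231 EV replicate 1 (edgeR adjusted p = 0.116), 231 EV replicate 3 (0.319), 231 ACO1KD EV replicate 1 (0.127) or 231 ACO1KD EV replicate 2 (0.0659), while the log2 fold change stayed between -1.16 and -0.71 when any 1 library was left out. The closest profiles were those of hsa-miR-671-5p (r = 0.953), hsa-miR-148a-3p (r = 0.910) and hsa-miR-103a-3p (r = 0.898). The first and the third were lower in 231 ACO1KD EV (log2 fold changes -0.90 and -0.45, edgeR adjusted p = 0.0151 and 0.0118). That direction follows in part from picking them for likeness to hsa-miR-105-5p.

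Ratios of counts within a library do not depend on any scaling between libraries. For all 15 pairs of the 6 miRNAs the log2 ratio was tested by exact permutation over the libraries (two-sided), where 3 against 3 allow no p under 0.1. In 4 of the 15 pairs the groups did not overlap (exact permutation p = 0.1, 0.375 after Benjamini-Hochberg adjustment over the 15 pairs). Of all 54615 pairs among the 331 miRNAs with a count above 0 in every library, 26.7% did not overlap, so the number among the 6 miRNAs is near the background. hsa-miR-210-3p was in 3 of the 4 pairs. Its count relative to hsa-miR-105-5p was on average 2.33-fold higher in 231 ACO1KD EV, with log2 ratios of 1.62, 2.27 and 1.21 against 3.16, 2.89 and 2.71. Relative to hsa-miR-34a-5p the factor was 1.75, with log2 ratios of 1.83, 1.23 and 1.67 against 2.83, 1.96 and 2.36. Relative to hsa-miR-335-5p it was 1.43, with log2 ratios of 0.09, 0.39 and 0.47 against 0.69, 0.75 and 1.05. The 4th pair was hsa-miR-155-5p relative to hsa-miR-105-5p, with a factor of 2.11. The 3 pairs with hsa-miR-210-3p share its counts, so they are not independent of each other. For hsa-miR-335-5p and hsa-miR-105-5p, hsa-miR-34a-5p and hsa-miR-105-5p, and all pairs with hsa-miR-31-5p the groups overlapped.

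The arms of a hairpin give a further measure within each library. For the miR-105 hairpins, the 5p arm had 52, 35 and 62 counts and the 3p arm 2, 2 and 2 in 231 EV, and the 5p arm had 23, 10 and 25 and the 3p arm 5, 3 and 5 in 231 ACO1KD EV. The 5p share was 96.3%, 94.6% and 96.9% in 231 EV and 82.1%, 76.9% and 83.3% in 231 ACO1KD EV. All knockdown libraries lay below all control libraries, by 15.1 percentage points on average (95.9% ± 1.19 against 80.8% ± 3.41, SD, n = 3 each), and the two-sided exact permutation p was 0.1, the smallest that 3 against 3 allow. Of 111 hairpins with reads on both arms and at least 10 reads in every library, 15.3% had groups that did not overlap, and the difference of miR-105 was the second in size. That order takes no account of read number, and the miR-105 hairpins had as few as 13 reads in a library. The share also uses the 5p counts already compared above, so it is not independent of that comparison. The 3p counts are few. The Wilson intervals of single libraries overlap between the groups, for example 64.4% to 92.1% in 231 ACO1KD EV replicate 1 and 87.5% to 99.0% in 231 EV replicate 1, and these intervals cover counting error only. hsa-miR-105-3p itself had a fold change of 2.83 with a 95% interval of 0.809 to 9.87 and did not pass the test (edgeR adjusted p = 0.388).

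The miR-335 hairpin gave no such separation. Its 5p share was 89.8%, 92.8% and 86.6% in 231 EV and 94.8%, 89.8% and 78.2% in 231 ACO1KD EV (two-sided exact permutation p = 0.8). The lowest and the highest of the 6 values both came from knockdown libraries. hsa-miR-335-3p was counted 17, 10 and 16 times against 7, 5 and 22 times and had a log2 fold change of 0.09 (standard error 0.45). The other arms of miR-155, miR-34a and miR-31 have no entry in the deposited table.

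The 6 miRNAs had a median log2 fold change of -0.23 after TMM scaling against -0.03 over all tested miRNAs, with 1 of 6 lower and 0 higher past the test, where 6% of all 517 tested miRNAs were lower and 2.51% higher. With library totals 13 of the 517 were lower and 58 (11.2%) were higher, beside which the counts of the lists stand. Of the 12 miRNAs listed for hypoxia, hsa-miR-210-3p among them, 10 were tested, and 4 were lower and 1 was higher in 231 ACO1KD EV (6% and 2.51% of all tested miRNAs). The lower ones were hsa-miR-107, hsa-miR-103a-3p, hsa-miR-181b-5p and hsa-miR-23a-3p, with log2 fold changes of -0.75, -0.45, -0.81 and -0.51, and the higher one was hsa-miR-199a-5p at 1.25, a miRNA that low oxygen is known to reduce. With library totals 0 of the 10 were lower and 2 were higher (11.2% of all tested miRNAs were higher).

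Of the 11 tested miRNAs listed for inflammation, hsa-miR-155-5p among them, 5 were lower and 1 was higher (6% and 2.51% of all tested miRNAs). hsa-miR-146a-5p, a feedback inhibitor of NF-kB signalling, was 6.57-fold lower after TMM scaling (edgeR adjusted p = 7.59e-27). Its level was 1295 ± 76.2 TPM in 231 EV and 258 ± 82.6 TPM in 231 ACO1KD EV (SD, n = 3 each). For hsa-miR-155-5p the log2 fold change was 0.03 (standard error 0.43). Its interval spans folds from 0.567 to 1.83, so it was not shown to be unchanged. The part of NF-kB signalling in these levels was not tested. The others lower were hsa-miR-146b-5p, hsa-miR-21-5p, hsa-miR-132-3p and hsa-miR-221-3p, and hsa-miR-223-3p was higher. With library totals 3 were lower and 2 higher, against 13 and 58 of all 517. Of the 10 tested miRNAs listed for the p53 response 2 were lower, hsa-miR-107 and hsa-miR-22-3p (log2 fold change -0.59), and 0 were higher, against 6% and 2.51% of all tested miRNAs. With library totals 0 of the 10 were lower and 1 was higher, which is near the 11.2% of all tested miRNAs.

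Of the 9 tested miRNAs listed as promoting metastasis 4 were lower, hsa-miR-105-5p, hsa-miR-21-5p, hsa-miR-103a-3p and hsa-miR-107, and 0 were higher, against 6% and 2.51% of all tested miRNAs. With library totals 1 was lower, against 13 of all 517. hsa-miR-182-5p and hsa-miR-122-5p, the most abundant of the others in that list, were at -0.18 and -0.10 on the log2 scale and did not pass the test. Of the 11 tested miRNAs listed as suppressing metastasis 3 were lower, hsa-miR-146a-5p, hsa-miR-146b-5p and hsa-miR-30a-5p, and 2 were higher, hsa-miR-126-3p (log2 fold change 0.52) and hsa-miR-7-5p (0.49), against the same 6% and 2.51%. With library totals 1 was lower and 2 were higher, against 13 and 58 of all 517. The medians of the 5 lists, in the order given, were -0.37, -0.14, -0.33, -0.45 and -0.27 on the log2 scale, and -0.02, 0.22, 0.02, -0.09 and 0.06 with library totals, where the median of all tested miRNAs was 0.32. Without 231 EV replicate 1, and likewise without 231 EV replicate 3, the numbers lower in the 5 lists were 1, 4, 1, 2 and 1. Of all tested miRNAs 14 of 480 and 14 of 482 were lower in these fits. The numbers higher were 1, 0, 0, 0 and 1 without 231 EV replicate 1 (7 of all 480). They were 0 in all 5 lists without 231 EV replicate 3 (5 of all 482). Without 231 EV replicate 2 the numbers lower were 3, 4, 1, 3 and 1 and those higher 1, 0, 0, 0 and 0 (22 and 7 of all 484). Without 231 ACO1KD EV replicate 1 the numbers were 2, 4, 1, 3 and 2 lower and 0, 0, 0, 0 and 1 higher (17 and 14 of all 484). Without 231 ACO1KD EV replicate 2 they were 2, 5, 2, 2 and 2 lower and 0, 1, 0, 0 and 2 higher (26 and 12 of all 501). Without 231 ACO1KD EV replicate 3 they were 6, 5, 2, 4 and 3 lower and 1, 1, 0, 0 and 2 higher (40 and 25 of all 476). The counts of that library differed most from those of its group. Chi-square over its degrees of freedom was 22.6 and 17.3, against 7.21 between replicates 1 and 2. The called members of the lists, hsa-miR-199a-5p, hsa-miR-223-3p, hsa-miR-126-3p and hsa-miR-7-5p included, therefore did not all keep their call when 1 library was left out. The lists share miRNAs, and hsa-miR-107 stands in 3 of them.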

How the data were processed

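Small RNA libraries of EVs were measured in 3 samples of 231 EV and 3 of 231 ACO1KD EV. The authors trimmed reads, kept small RNA sizes, discarded other RNA classes by Rfam, assigned known miRNAs by miRBase and predicted others. Per the labels the build was hg38, with Bowtie2 and StringTie among the tools. The authors deposited counts for each miRNA beside TPM, and TPM equals the count as a share of the counted reads to within 4.99e-05. The libraries held 67873 to 230562 counts, and the limit allowed by a count of 0 (3 counts) was 13.0 to 44.2 TPM.

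Counts were compared with edgeR 4.0.16 (R 4.3.3) by its quasi-likelihood test, TMM-scaled, without covariates, with Benjamini-Hochberg adjustment over 517 miRNAs. All miRNAs shared 1 quasi-dispersion, so edgeR p-values and intervals rest on a spread pooled over miRNAs, not on that of each miRNA alone. Standard errors came from the F statistic and the fold change. The study named DESeq2. DESeq2 1.42.0, limma 3.58.1 on log2(TPM + 1), other scalings and filters, a replicate block and leaving out each library were alternatives. The code was tested on simulated data. Permutation tests and Wilson intervals, which cover counting error only, used SciPy 1.17.1.

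Named were the 6 miRNAs, their other arms and seed relatives, called miRNAs and up to 2 others of the highest mean TPM from each pathway list, marker lists, and for each of the 6 with a mean count of 10 or more the 3 miRNAs of highest Pearson's r. The miRNAs, lists and tests were chosen with earlier results of these data known.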

Additional observations from a re-analysis of the deposited data

How the results depend on the processing

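The number of miRNAs past an adjusted p of 0.05, 44 (31 lower, 13 higher) in edgeR with TMM scaling, was 71 (13, 58) with library totals, 75 (16, 59) with limma, and 19 to 65 without 1 library. Among the 6 miRNAs the number called was 1, and 0 with DESeq2 and 0 to 1 without 1 library. With library totals and with limma the 1 called was hsa-miR-210-3p (log2 fold change 0.67 in both) in place of hsa-miR-105-5p (-0.59 and -0.55), which DESeq2 left at -0.91 and not called. Without 1 library hsa-miR-105-5p was at -1.16 to -0.71 and past the threshold in 2 of 6 fits. hsa-miR-34a-5p stayed below 0 and not called in all 14 alternatives.

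Signs turned for miRNAs that passed no test. hsa-miR-155-5p was at -0.0342 with scaling factors computed without the 10 highest miRNAs and at -0.25 to 0.52 without 1 library. hsa-miR-31-5p was at 0.0599 with library totals, 0.11 with limma and -0.93 to 0.47 without 1 library, and DESeq2 gave it no adjusted p. hsa-miR-335-5p was at 0.16 with library totals and with limma. The 5p share of miR-335 differed by -5.72 to 2.58 percentage points without 1 library. The log2 ratio of hsa-miR-31-5p to hsa-miR-335-5p was 0.0998 higher with 0.5 added to each count and -0.62 to 0.52 without 1 library. Without 1 library the ratio of hsa-miR-210-3p to hsa-miR-155-5p differed by -0.28 to 0.52, that of hsa-miR-155-5p to hsa-miR-31-5p by -0.41 to 0.95 and that of hsa-miR-31-5p to hsa-miR-34a-5p by -0.20 to 0.60. Library totals moved the median of all tested miRNAs by 0.35 on the log2 scale against TMM. For the remaining settings the cause was not tested.

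The labels do not say whether libraries of equal replicate number were prepared together. The Pearson's r of their deviations from the group mean over 517 miRNAs was 0.11 for number 1, 0.12 for number 2 and 0.00045 for number 3. Libraries of unequal number were not compared in this way. With a replicate block in edgeR the number of calls was 44, hsa-miR-105-5p was at -0.96 (edgeR adjusted p = 0.0445), and no other of the 6 passed. Counts per library were low for hsa-miR-31-5p (1 to 8), hsa-miR-155-5p (11 to 25), hsa-miR-105-3p (2 to 5), hsa-miR-335-3p (5 to 22) and hsa-miR-210-5p (0 to 1), which limits what can be said of them.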
